A study of Mus musculus with 48 samples.

Results

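The effect of nicotine content was examined in cultured mouse alveolar epithelial type II cells (AECII), the cells that make and secrete lung surfactant. The 8 arrays of AECII given an extract made from an 18 mg/ml nicotine liquid were set against the 8 given the extract of a liquid with 0 mg/ml nicotine. The groups were taken from the sample titles, so 16 of the 48 arrays of the series enter this contrast. A further 8 arrays of AECII labelled as control served to estimate the spread, and pulmonary arterial smooth muscle cells (PASMC), with 8 arrays per nicotine content, gave the same contrast in another cell type. PASMC also received 15% extract for 24 h, in medium with 15% serum.

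All cells came from C57Bl/6J mice, 8 in number per the design text, with no genetic alteration given in the labels. AECII were plated at 300000 cells per well in medium with 10% serum. After 24 h in culture they received a 15% extract of e-cigarette vapour (ECVE) for 24 h, the percentage being the same for both liquids. What the control AECII received in place of the extract is labelled only as room air. Total RNA was read on 1-colour Agilent arrays, and the values are quantile-normalised log2 signals as deposited, with a median of 2.97 to 2.98 on each array.

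Nicotine acts on ligand-gated ion channels, the nicotinic acetylcholine receptors, which let cations into the cell and are found in airway and alveolar epithelium as well as in neurons. It is broken down mainly by cytochrome P450 enzymes and aldehyde oxidase. The vapour also carries carbonyls and oxidants, which are known to switch on the NRF2 program of antioxidant enzymes whether or not nicotine is present. Comparing both extracts at the same percentage therefore asks which transcripts differ with the nicotine content of the liquid.

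The cultures carried the defining transcripts of type II cells. Surfactant protein C, Sftpc, had a mean log2 signal of 14.33 ± 0.32 in the 18 mg/ml arrays, 14.28 ± 0.25 in the 0 mg/ml arrays and 14.33 ± 0.30 in control (SD, n = 8 each). Of 23 type II markers 21 passed the filter on low signals. Slc34a2, a phosphate carrier of type II cells, and Pgc, a protease of the pepsinogen family, did not. Transcripts of other lung cells were present too. The club cell secretoglobin Scgb1a1 stood at 15.76 ± 0.077 and 15.75 ± 0.087 with 18 and 0 mg/ml, against a scale that ends at 15.89. The mesothelial marker Msln stood at 14.17 ± 0.13 and 14.25 ± 0.14. Arrays of the 18 mg/ml group correlated at 0.976 to 0.983 with each other, those of the 0 mg/ml group at 0.972 to 0.984, and arrays across both groups at 0.971 to 0.985. Arrays of one nicotine content and arrays of different content thus correlated over the same range. The first principal component of the 16 arrays held 11.9% of the variance and shared 0.993% of its variance with the nicotine grouping. The components with the largest share were the ninth, which held 5.44% of the variance and shared 36.1% with the grouping, and the thirteenth, with 4.51% and 29.2%. All 15 components together hold the whole of any grouping of these arrays, and these 2 were picked as the largest, so their shares are a description.

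No transcript differed between the 18 and 0 mg/ml extracts at an adjusted p under 0.05. Of 14477 genes tested with limma (two-sided, Benjamini-Hochberg adjustment), 0 were called (0% of those tested), and the smallest adjusted p was 0.999998. At an unadjusted p under 0.05 there were 447 genes, 3.09% of those tested, 269 of them higher with nicotine (1.86%) and 178 lower (1.23%). With an even spread of p values the share would be 0.05, which is more than was found. Why fewer were found was not tested. An unadjusted p under 0.01 was reached by 89 genes, 0.615%. The labels do not say which array number is which mouse, so these p values measure the spread between arrays, which may be technical in part.

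Most genes could be bounded closely. Genes were called bright where their mean over the 24 AECII arrays was at least 2 log2 units above the array median, that is at 4.98 or more. For 8838 of 10059 bright genes (87.9%) the 95% interval of the difference between 18 and 0 mg/ml lay inside 1.5-fold either way, and for 9916 (98.6%) inside 2-fold. Among 4418 dim genes these shares were 11.9% and 79.5%, so for most dim genes a difference of 1.5-fold was within the interval that these arrays allow. The median absolute difference was 0.065 in bright genes and 0.19 in dim genes on the log2 scale. No bright gene had a difference beyond 2-fold in either direction. Beyond 1.5-fold lay 239 genes, of which 19 were bright. Among bright genes 2.09% had an unadjusted p under 0.05, against 5.36% among dim genes.

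**Figure D1:**
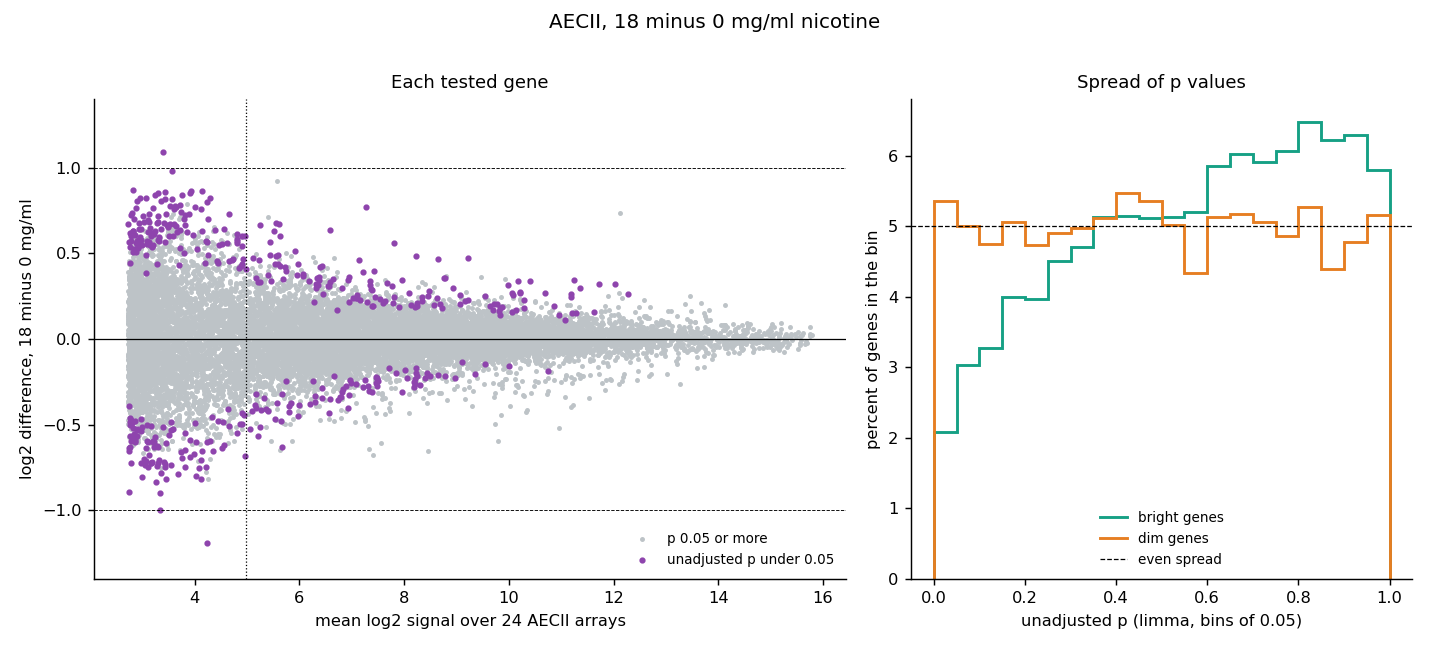
Left, the log2 difference between 18 and 0 mg/ml nicotine for each of 14477 tested genes against its mean log2 signal over 24 AECII arrays, with the bright limit of 4.98 dotted and 2-fold dashed. Right, the percentage of bright and of dim genes in each bin of unadjusted limma p, with the share of an even spread dashed. Differences widen towards dim genes, and 2.09% of bright genes lie in the lowest bin.

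The 10 bright genes with the smallest p in the higher direction were led by Kif3a, Nab1 and Tead1. None passed the adjusted test (adjusted p = 0.999998 for each), and their values are given as a description. Kif3a encodes a motor subunit of kinesin-2, which carries cargo along the ciliary axoneme. The lowest, median and highest of its log2 signals were 8.62, 8.83 and 9.12 with 18 mg/ml, against 8.01, 8.41 and 8.75 with 0 mg/ml and 8.42, 8.69 and 8.93 in control. All 8 arrays with nicotine were above the mean of the 0 mg/ml arrays, while the ranges of both groups overlapped. The difference was 0.46 (SE 0.11, 95% interval 0.24 to 0.69). A second feature for Kif3a gave 0.15 in the same direction.

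Nab1 encodes a corepressor that binds the immediate-early factors EGR1 and EGR2. Its signals ran from 8.72 over a median of 8.89 to 9.15 with 18 mg/ml, against 8.33, 8.56 and 8.82 with 0 mg/ml and 8.54, 8.83 and 8.98 in control. The difference was 0.36 (SE 0.091, 95% interval 0.17 to 0.54). Here again the groups overlapped, although each of the 8 nicotine arrays exceeded the mean of the 0 mg/ml group.

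Tead1, the DNA-binding partner of the Hippo pathway coactivators YAP and TAZ, was 1 of 2 genes whose groups did not overlap. Its arrays with 18 mg/ml lay at 9.99 to 10.45 (median 10.07) and those with 0 mg/ml at 9.54 to 9.97 (median 9.83). The control arrays, at 9.77 to 10.19, overlapped both ranges, and their median of 10.09 lay within that of 18 mg/ml. The difference was 0.31 (SE 0.082, 95% interval 0.14 to 0.48). However, 2 other features for Tead1 gave −0.031 and −0.36, so the direction depended on the feature, and with the mean of all features it was −0.025. The other gene without overlap, Fastkd2, encodes a mitochondrial RNA-binding protein and lay near background, at 2.81 to 3.77 (median 3.02) against 2.01 to 2.76 (median 2.41). These 2 genes are 0.0138% of those tested, and 0 genes had all 8 nicotine arrays below all 8 of the 0 mg/ml group.

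Among the other 7 bright genes with the smallest p in the higher direction, the differences ran from 0.25 to 0.77. The largest belonged to Kitl, the ligand of the receptor tyrosine kinase Kit. Its lowest, median and highest signals were 7.08, 7.52 and 8.21 with 18 mg/ml, against 5.96, 6.84 and 7.56 with 0 mg/ml and 6.30, 7.44 and 7.96 in control (difference 0.77, SE 0.23). Fndc3a, which encodes a fibronectin type III domain protein, differed by 0.67 (SE 0.20). For the ribosome assembly factor Utp14a the difference was 0.64 (SE 0.20), and a second feature for it gave 0.57. Dcaf5, a substrate receptor of a CUL4 ubiquitin ligase, differed by 0.43 (SE 0.12). Its 8 arrays with 18 mg/ml lay at 5.60 to 6.02, while the 0 mg/ml arrays spread over 4.81 to 5.62.

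Smaller differences with a narrow spread came from Galnt1, which starts mucin-type O-glycosylation (0.31, SE 0.096), and from Pdia3, a disulfide isomerase of the endoplasmic reticulum (0.30, SE 0.090). Etf1, the translation release factor, differed by 0.25 (SE 0.076). Pdia3 lay at 11.33, 11.46 and 11.58 (lowest, median, highest) with 18 mg/ml, against 10.84, 11.21 and 11.50 with 0 mg/ml and 11.14, 11.41 and 11.67 in control. Each of these 10 genes had all 8 nicotine arrays above the mean of the 0 mg/ml arrays, and leaving out any 1 array of either group kept the direction of each. The genes were chosen by their p on these same arrays, so both observations follow largely from that choice and add no support.

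Among the 10 bright genes with the smallest p in the lower direction B4galt7 came first. B4galt7 encodes the enzyme that adds the first galactose of the linker through which glycosaminoglycans are attached to core proteins. Its lowest, median and highest signals were 4.60, 5.35 and 5.67 with 18 mg/ml, against 5.37, 5.74 and 6.21 with 0 mg/ml and 5.60, 5.89 and 6.13 in control. The difference was −0.48 (SE 0.13, 95% interval −0.75 to −0.21, limma adjusted p = 0.999998). Without the array at 4.60 it was −0.38.

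Gstt2, a theta-class glutathione transferase, lay at 4.71, 5.33 and 5.68 with 18 mg/ml, against 5.25, 5.85 and 6.14 with 0 mg/ml and 5.17, 5.53 and 5.92 in control (difference −0.47, SE 0.15). Ap1g1, a subunit of the AP-1 adaptor that sorts cargo at the trans-Golgi network, lay at 7.79, 8.04 and 8.27 with 18 mg/ml, against 8.07, 8.32 and 8.47 with 0 mg/ml and 7.99, 8.28 and 8.37 in control (−0.28, SE 0.081). For both genes, which were likewise chosen by p, all 8 nicotine arrays were below the mean of the 0 mg/ml arrays, and the ranges overlapped. Cyb561d1, of the cytochrome b561 family, differed by −0.42 (SE 0.13), but its other feature gave 0.14. The membrane protein gene Tmem198 differed by −0.35 (SE 0.096) with one feature and by 0.35 with the other. AA684185 gave −0.41 (SE 0.13), with −0.097 and 0.68 from its 2 other features.

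The remaining 4 of these genes had differences of −0.37 to −0.22. They are Echdc3, which encodes an enoyl-CoA hydratase domain protein (−0.37, SE 0.12), and Nup155 of the nuclear pore (−0.30, SE 0.10). Akap1, which anchors protein kinase A at the mitochondrial surface, differed by −0.29 (SE 0.097), with −0.43 from its second feature. The dynein arm assembly factor Dnaaf5 differed by −0.22 (SE 0.074).

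**Figure D2:**
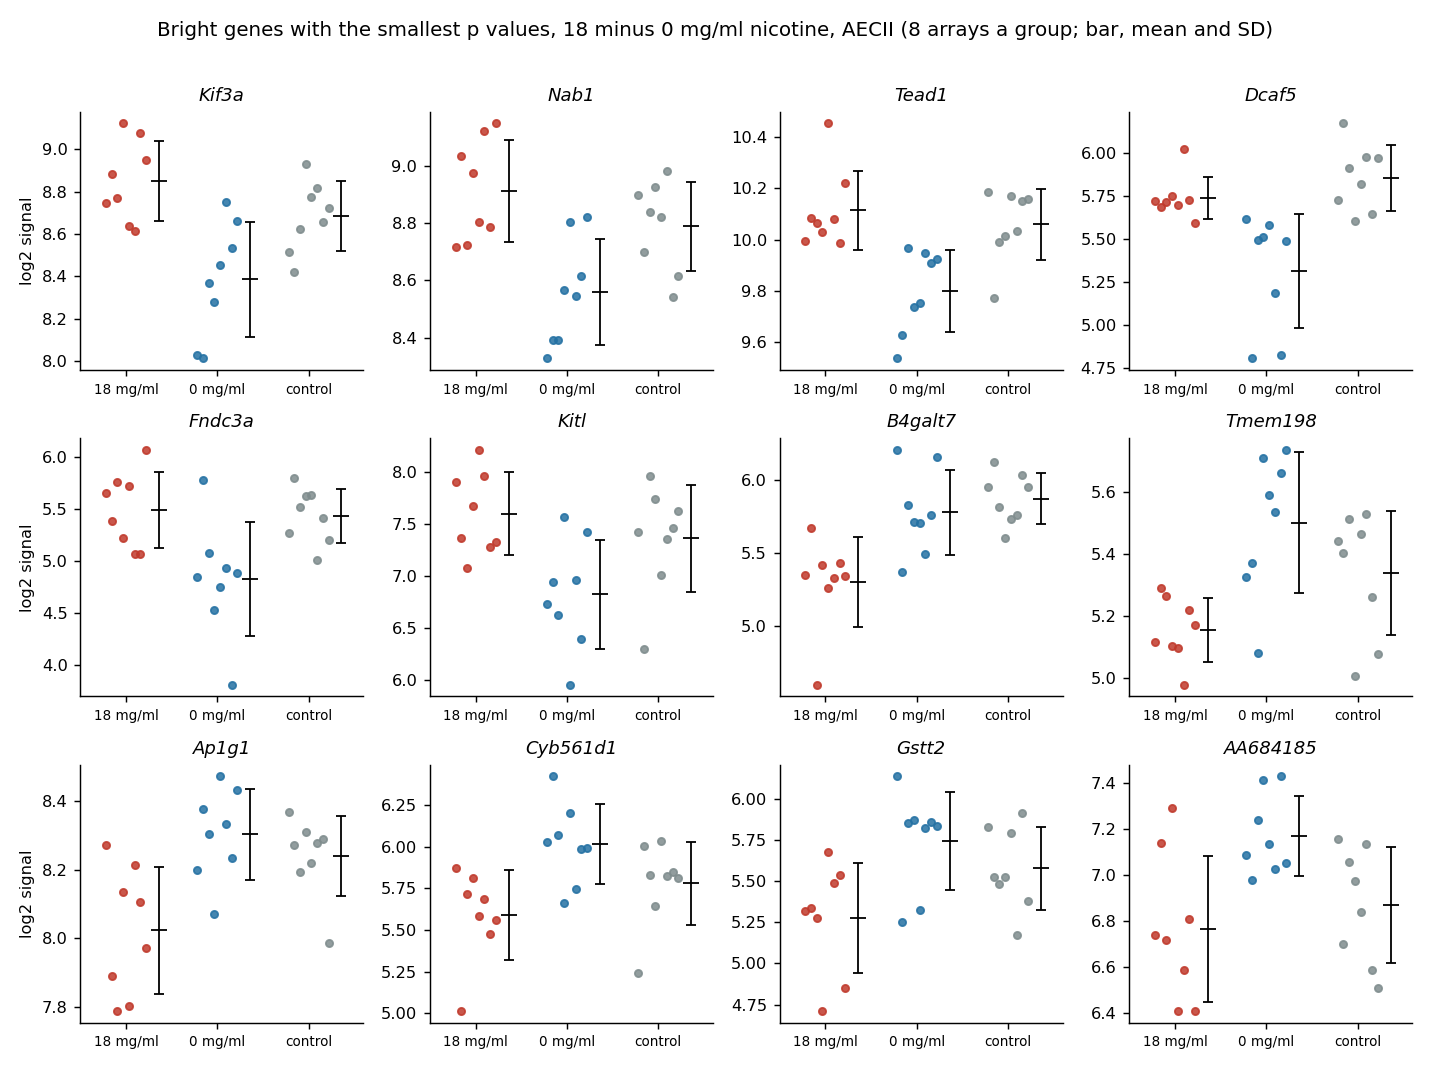
Log2 signal of the 6 bright genes with the smallest p in each direction, by array (points) in AECII given the 18 mg/ml extract, the 0 mg/ml extract, or control, with mean and SD as bars (n = 8 each). Axes differ between genes and do not start at 0. Tead1 is the gene shown whose 18 and 0 mg/ml arrays do not overlap, at 9.99 to 10.45 against 9.54 to 9.97.

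The dim genes with the smallest p are given by value only, since their signals lie close to background. Krtap1-4, a keratin-associated protein gene, averaged 3.92 ± 0.55 with 18 mg/ml and 2.94 ± 0.52 with 0 mg/ml (SD, n = 8 each, difference 0.98), and Gm3604 averaged 3.91 ± 0.60 and 2.81 ± 0.56 (1.09). Gabbr1, a subunit of the GABA-B receptor, averaged 4.24 ± 0.44 and 4.88 ± 0.26. Its difference was −0.64 (SE 0.16, limma adjusted p = 0.999998), with −0.34 and 0.082 from its 2 other features. Iqcn (−0.50) and Ssc5d (−0.63) completed the list.

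The control arrays place these values. The comparisons of 18 mg/ml with control, of 0 mg/ml with control and of 18 with 0 mg/ml share arrays, so their estimates are not independent and are only set side by side. Kif3a differed by 0.17 between 18 mg/ml and control and by −0.30 between 0 mg/ml and control. For Tead1 these values were 0.055 and −0.26, for Nab1 0.12 and −0.23, for Dcaf5 −0.11 and −0.54, and for Kitl 0.24 and −0.53. Among the genes of the lower direction B4galt7 gave −0.57 and −0.093, Echdc3 −0.38 and −0.0035, and Akap1 −0.31 and −0.018. For the other bright genes named in that direction the 0 mg/ml mean lay above control. Gstt2 gave −0.30 and 0.17, Ap1g1 −0.22 and 0.063, and Tmem198 −0.18 and 0.16. Cyb561d1 gave −0.19 and 0.23, AA684185 −0.11 and 0.30, Nup155 −0.11 and 0.20, and Dnaaf5 −0.10 and 0.12. Gabbr1 gave −0.22 and 0.41. Against control, 0 of 14477 genes were called for either extract (0%). At an unadjusted p under 0.05 there were 341 genes (2.36%) with 18 mg/ml and 480 (3.32%) with 0 mg/ml.

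Nicotinic receptor transcripts were mostly near or below background in these cultures. Of 16 receptor genes on the array 7 passed the filter on low signals and 1, Chrnb1, was bright. No receptor gene had an unadjusted p under 0.05, 5 of 7 estimates were positive, and their median was 0.048, beside 0.0035 over all tested genes. Estimates were positive for 51.2% of all tested genes. Chrnb1, a beta subunit first known from the muscle receptor, lay at 6.53, 6.89 and 7.17 (lowest, median, highest) with 18 mg/ml, against 6.13, 6.76 and 7.33 with 0 mg/ml and 6.17, 6.86 and 7.29 in control. Its difference was 0.13 (SE 0.15, 95% interval −0.18 to 0.44), and all arrays with 18 mg/ml lay within the range of those with 0 mg/ml. Chrna7, the subunit of the homomeric alpha-7 channel, had 3.44, 3.85 and 4.89 with 18 mg/ml, against 3.13, 3.91 and 4.58 with 0 mg/ml and 2.41, 3.30 and 3.78 in control. The difference between the extracts was 0.048 (SE 0.22, interval −0.41 to 0.51). The 9 other features for Chrna7 lay below the filter and gave −0.43 to 0.33, with 5 in the same direction.

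The muscle-type alpha subunit Chrna1 had the smallest unadjusted p of the family, 0.0667 with limma. It lay at 2.92 to 4.07 with 18 mg/ml and 2.15 to 4.33 with 0 mg/ml, near background, with a difference of 0.59 (SE 0.31, interval −0.044 to 1.22). A second feature for Chrna1, below the filter, gave 0.15. Chrnb4, a partner of alpha-3 in ganglionic receptors, differed by 0.072 (SE 0.29). Chrna3, Chrna5 and Chrnb2 were below the filter, with means of 2.25, 2.49 and 2.23 with 18 mg/ml and of 2.41, 2.34 and 2.28 with 0 mg/ml. Of 13 tested partners of cholinergic signalling, such as acetylcholinesterase (Ache, −0.23) and the LY6-family receptor modulator Lynx1 (−0.027), 3 estimates were positive, the median was −0.10 and none had an unadjusted p under 0.05.

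Among genes of nicotine breakdown 9 of 14 tested had positive estimates and 0 had an unadjusted p under 0.05. Their median was 0.095, near the upper end of the 32 list medians (0.096), while their mean difference was −0.033. Cyp2a5, the main nicotine oxidase of mice, is not named among the features used here. Aldehyde oxidase, Aox1, which acts on the iminium intermediate of nicotine, had 5.80, 6.40 and 7.06 with 18 mg/ml, against 5.43, 6.48 and 7.15 with 0 mg/ml and 5.21, 6.06 and 6.61 in control (difference 0.10, SE 0.26). Fmo5, a flavin monooxygenase, had the smallest p of this group. It averaged 3.87 ± 0.90 with 18 mg/ml and 4.68 ± 0.41 with 0 mg/ml (SD, n = 8 each), a difference of −0.82 (SE 0.40, 95% interval −1.64 to 0.0089).

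Of the antioxidant genes under NRF2, 20 of 30 had positive estimates and none reached an unadjusted p under 0.05. Their median difference was 0.076. Hmox1, the heme-degrading enzyme heme oxygenase 1, had the largest estimate of this list. Its signals ran from 11.82 over a median of 12.57 to 13.31 with 18 mg/ml, against 8.29, 12.39 and 12.61 with 0 mg/ml and 11.43, 12.01 and 12.65 in control. The lowest value, 8.29 in array 2 of the 0 mg/ml group, lay far below the next at 11.47. The difference was 0.74 (SE 0.44, interval −0.18 to 1.65), and 0.23 without that array. A second feature for Hmox1 gave 0.55 and was also lowest in the same array, at 6.37. The stress factor Ddit3 was lowest there as well, at 5.60.

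Nqo1, a quinone reductase, had 7.88, 9.12 and 9.89 with 18 mg/ml, against 8.25, 9.14 and 9.53 with 0 mg/ml and 7.49, 8.98 and 9.23 in control. The difference between the extracts was 0.021 (SE 0.26, interval −0.51 to 0.55). For the glutathione synthesis genes the differences were 0.24 (SE 0.18) for Gclm and −0.0061 (SE 0.17) for Gclc. Thioredoxin reductase Txnrd1 differed by 0.12 (SE 0.12), the sulfiredoxin Srxn1 by −0.010 (SE 0.18) and the cystine carrier Slc7a11 by 0.23 (SE 0.29). The 95% intervals of these 6 genes include 0 and exclude a 2-fold difference either way. The list mean of the NRF2 genes lay at 11.026 to 11.587 with 18 mg/ml, 10.996 to 11.411 with 0 mg/ml and 10.769 to 11.293 in control.

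**Figure D3:**
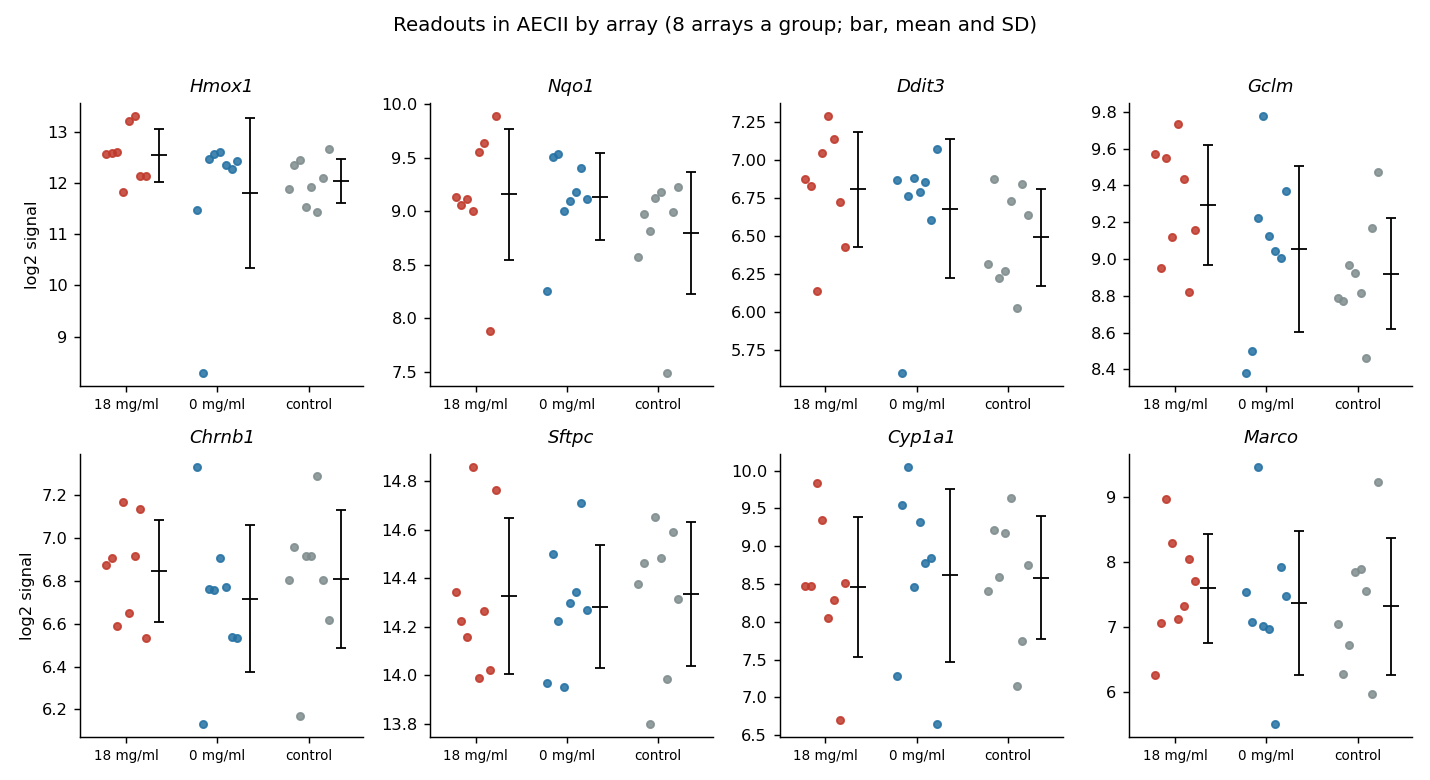
Log2 signal by array (points) of 8 readout genes in AECII given the 18 mg/ml extract, the 0 mg/ml extract, or control, with mean and SD as bars (n = 8 each). Axes differ between genes and do not start at 0. The 18 and 0 mg/ml arrays overlap for each gene shown, and 1 array of the 0 mg/ml group stands apart for Hmox1 at 8.29.

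Genes of the aryl hydrocarbon receptor, whose target Cyp1a1 oxidises polycyclic hydrocarbons, showed no call either. Cyp1a1 had 6.70, 8.48 and 9.84 with 18 mg/ml, against 6.65, 8.81 and 10.05 with 0 mg/ml and 7.15, 8.67 and 9.64 in control. Its difference of −0.16 had an SE of 0.46 and an interval of −1.11 to 0.80, so a difference of 2-fold in the lower direction was not excluded. For Cyp1b1 the arrays were tighter, at 11.36 to 12.06 and 11.41 to 12.22 with 18 and 0 mg/ml (difference 0.0065, SE 0.13). Of the 20 genes of aldehyde metabolism tested, 12 had positive estimates, with a median of 0.042 and 0 at an unadjusted p under 0.05. Aldh3a2, a fatty aldehyde dehydrogenase, had the smallest p of them (difference −0.19, SE 0.10).

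No gene of the surfactant program was called between the extracts. Of 21 tested genes 12 had positive estimates, their median was 0.017 and none had an unadjusted p under 0.05. Sftpc had 13.99, 14.24 and 14.86 (lowest, median, highest) with 18 mg/ml, against 13.95, 14.28 and 14.71 with 0 mg/ml and 13.80, 14.42 and 14.65 in control. The difference was 0.045 (SE 0.14, interval −0.25 to 0.34). Those of the other surfactant proteins were 0.12 (SE 0.24) for Sftpa1, −0.024 (SE 0.14) for Sftpb and 0.049 (SE 0.12) for Sftpd. Abca3, the lipid pump of lamellar bodies, differed by 0.068 (SE 0.10). A second feature for Sftpb gave 0.26. The intervals of all these genes lay inside 2-fold. Cebpa, a transcription factor of type II cell maturation, had the smallest p of the group, at 5.31 ± 0.52 with 18 mg/ml and 5.61 ± 0.34 with 0 mg/ml.

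Lipid synthesis, on which surfactant depends, gave medians of 0.023 over 26 genes of fatty acid and phospholipid synthesis and −0.0058 over 20 genes of cholesterol synthesis. Dhcr7, which catalyses the last step to cholesterol, was the gene of the cholesterol list at an unadjusted p under 0.05. It had 4.33, 5.02 and 5.66 with 18 mg/ml, against 5.24, 5.46 and 5.93 with 0 mg/ml and 4.94, 5.16 and 5.65 in control (difference −0.51, SE 0.18, limma adjusted p = 0.999998). Markers of type I cells, which line the gas exchange surface, had a median of 0.035 over 17 genes, and those of the transitional state between both cell types −0.013 over 16.

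Among 32 gene lists, medians ran from −0.10 to 0.096, with 18 positive and 14 negative. Of 610 tested list genes 8 had an unadjusted p under 0.05, 6 higher and 2 lower, which is 1.31% against 3.09% of all tested genes. That share was 2.09% in bright and 5.36% in dim genes, and the lists were not matched on signal. The 6 higher were Kif3a, Nab1, Pdia3, the ERK phosphatase gene Dusp5 (0.86, SE 0.30), the intraflagellar transport gene Ift20 (0.21, SE 0.082) and the autophagy gene Becn1 (0.26, SE 0.12). The 2 lower were Dhcr7 and Gabbr1. None of the 8 passed the adjusted test.

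For cAMP-responsive and immediate-early genes, which respond to calcium entry, 23 of 32 estimates were positive with a median of 0.057. Fos differed by 0.055 (SE 0.19) and Egr1 by 0.15 (SE 0.17), and both had overlapping groups, at 5.29 to 6.33 against 5.15 to 6.41 for Fos and 7.22 to 8.30 against 6.97 to 8.02 for Egr1. The 9 other features for Fos, all above the filter, gave −0.42 to 0.29, and 4 of them had the sign of the feature used. In the intraflagellar transport list, to which Kif3a belongs, 12 of 27 estimates were positive and the median was −0.037. Heat shock genes had 14 of 17 positive estimates and a median of 0.050. Over all tested genes 51.2% of estimates were positive, and genes of 1 list are not independent of each other. Their list mean lay at 11.41 to 11.52 with 18 mg/ml, 11.27 to 11.50 with 0 mg/ml and 11.31 to 11.52 in control. Chaperones of the endoplasmic reticulum had 15 of 21 positive estimates with a median of 0.036, and targets of the stress factor ATF4 had 22 of 30 with 0.033. In the cell-cycle list 9 of 31 estimates were positive and the median was −0.043. Pcna, the DNA polymerase clamp, had the smallest p there (−0.11, SE 0.076).

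Inflammatory transcripts were likewise uncalled. Cytokines and NF-kB targets had 17 of 30 positive estimates (median 0.032), and interferon-stimulated genes 8 of 22 (median −0.047). Il6 lay at 5.08, 5.41 and 6.28 with 18 mg/ml, against 4.94, 5.49 and 5.98 with 0 mg/ml and 4.50, 5.66 and 6.27 in control (difference 0.12, SE 0.21). The smallest p among the cytokines belonged to the chemokine Ccl3, at 3.18 ± 0.85 with 18 mg/ml and 3.82 ± 0.47 with 0 mg/ml (difference −0.64, SE 0.31, 95% interval −1.29 to 0.0057).

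**Figure D4:**
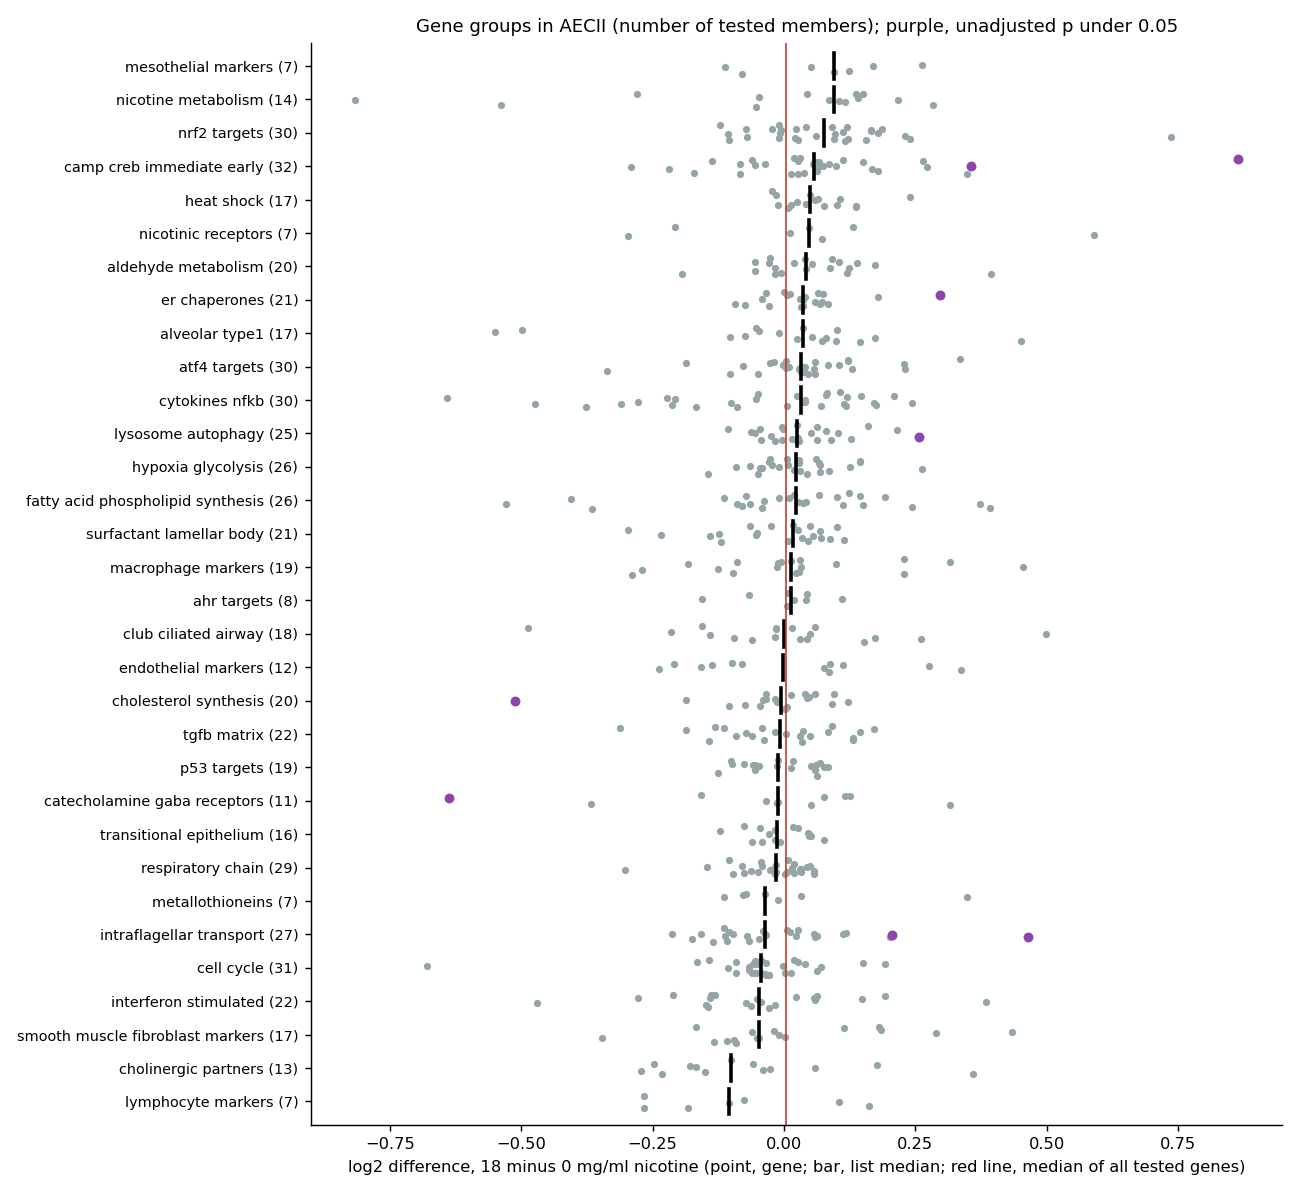
Log2 difference between 18 and 0 mg/ml nicotine in AECII for the tested genes (points) of 32 gene lists, with the number of tested genes in brackets, list medians as black bars, the median of all tested genes as a red line and genes at an unadjusted limma p under 0.05 in purple. List medians lie between −0.10 and 0.096, and 8 genes are purple.

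Markers of other cells in the culture gave list medians from −0.10 to 0.096 between the extracts, and these were the lowest and highest of all 32 lists. Macrophage markers had 10 of 19 positive estimates with a median of 0.014. Their list mean varied widely within each group, at 5.12 to 6.76 with 18 mg/ml, 5.34 to 6.80 with 0 mg/ml and 5.14 to 7.13 in control. Marco, a scavenger receptor of alveolar macrophages, lay at 6.26, 7.52 and 8.97 with 18 mg/ml, against 5.51, 7.28 and 9.46 with 0 mg/ml and 5.97, 7.30 and 9.24 in control (difference 0.23, SE 0.48). In bulk RNA fewer cells of a type and less RNA per cell cannot be told apart. Mesothelial markers had a median of 0.096 (5 of 7 positive), endothelial markers −0.0021 (6 of 12), smooth muscle and fibroblast markers −0.048 (6 of 17) and lymphocyte markers −0.10 (2 of 7). Airway markers had 9 of 18 positive, with a median of 0.00047. Smooth muscle actin, Acta2, ranged over 10.93 to 12.83 with 18 mg/ml and 11.11 to 12.67 with 0 mg/ml (difference −0.091, SE 0.33). None of these markers had an unadjusted p under 0.05, and the part of this variation between arrays in the results above was not tested.

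The same contrast in PASMC, on other arrays, also called 0 of 14545 genes (0%), with 282 (1.94%) at an unadjusted p under 0.05 and a smallest adjusted p of 0.999931 (limma). Transcripts of other lung cells varied widely between PASMC arrays. Sftpc ran over 2.00 to 11.21 with 18 mg/ml and 2.07 to 11.82 with 0 mg/ml, and Marco over 7.49 to 13.07 and 7.24 to 12.87. The part of this variation in the PASMC estimates and their spread was not tested. Tested directly, the nicotine difference in AECII minus that in PASMC called 0 of 14775 genes (0%), and 310 (2.1%) had an unadjusted p under 0.05. Of 13599 genes tested in both cell types, 400 in AECII and 246 in PASMC had an unadjusted p under 0.05, and 14 were shared, 3.5% and 5.69% of each. Beside the 3.5% stands a share of 1.94% over all genes tested in PASMC. Beside the 5.69% stands 3.09% over all genes tested in AECII. Of the 14 shared genes 8 had the same direction in both cell types, as had 58% of the 400 and 53.3% of all 13599 genes. Across 9892 bright genes the 2 sets of differences had a Pearson correlation of 0.15, and across all 13599 genes of 0.061. Both are given as a description, since genes are not independent replicates.

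The genes described first were chosen by their p in AECII, so their PASMC estimates are given only beside those of AECII. Kif3a differed by 0.46 in AECII and by 0.024 (SE 0.080) in PASMC, Nab1 by 0.36 and −0.10 (SE 0.17), and Tead1 by 0.31 and −0.056 (SE 0.096). B4galt7 differed by −0.48 and −0.069 (SE 0.20). The cell-type difference itself was not called for any of them. Its smallest p in the higher direction belonged to E430024I08Rik, which differed by 0.60 in AECII and −0.36 in PASMC (difference of differences 0.96, limma adjusted p = 0.999921). The TLC-domain membrane protein gene Tlcd1 gave 0.35 and −0.51, and the cell adhesion gene Cadm3 0.66 and −0.50. A second feature for Cadm3, below the filter, gave −0.14 in AECII, and the mean of both features 0.26. Cadm3 is dim in AECII, averaging 3.79 with 18 mg/ml and 3.13 with 0 mg/ml, and E430024I08Rik lay just under the bright limit there. In the lower direction came the lymphotoxin gene Lta (−0.72 and 0.65), Oas1e and the sodium channel gene Scn2a (−0.68 and 0.69), which are dim in AECII, with means of 2.74 to 2.89 with 18 mg/ml and 3.40 to 3.62 with 0 mg/ml. In AECII 2 of 9 other features for Lta and 4 of 11 for Scn2a had the sign of the feature used, and of these features 0 and 1 passed the filter.

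**Figure D5:**
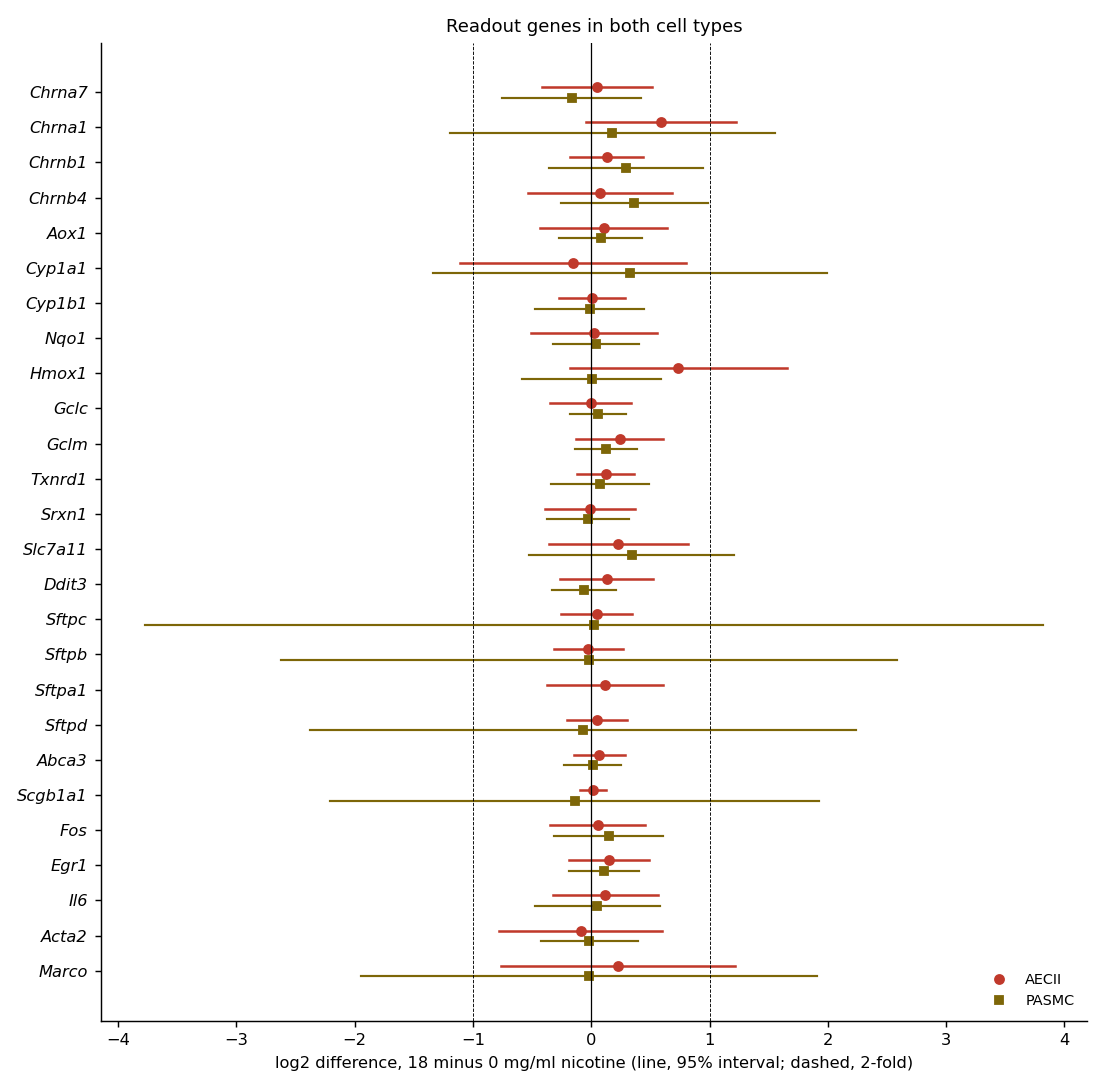
Log2 difference between 18 and 0 mg/ml nicotine (points) with its 95% interval (lines) for readout genes in AECII (red circles) and PASMC (brown squares), with 2-fold dashed. No interval of AECII excludes 0, and Hmox1 has the largest estimate there at 0.74.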

How the data were processed

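RNA of 48 cultures was hybridised to 1-colour arrays. The authors deposited 1 log2 value per feature and array, and limma is named, without a version, in the submitters' processing notes. The arrays share their median, upper quartile and maximum, so the deposited log2 values are quantile normalised, and a shift of all genes together would not show. Background correction is not given in the sources used here. Of 62976 features 31465 have a gene name (GEO platform annotation, updated through RefSeq, GRCm38), giving 20738 genes, each read from its feature with the highest mean over the 48 arrays. Genes were tested where their mean over the fitted arrays exceeded 2.73, the 30th percentile of named features. In R 4.3.3, lmFit and eBayes of limma 3.58.1 (array weights with statmod 1.5.0) were run on all 24 arrays of a cell type, or on all 48 for the difference between cell types. Tests are two-sided with Benjamini-Hochberg adjustment. Precision is limited by the 8 arrays in each group.

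Genes named are the 10 bright and 3 dim per direction with the smallest p, the leading gene or genes of each list (32 lists, 669 of 702 genes on the array), a set of readouts, and 3 per direction of the cell-type difference. The genes and lists were chosen with earlier results of these data known, so lists are described by counts and medians only. The procedure was tested on simulated data. Alternatives were the replicate number as a block, other filters, renewed quantile normalisation, median centring, only the 16 arrays, all 48 arrays, trend and robust eBayes, array weights, averaging the features of each gene, and dropping single arrays in turn.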

Additional observations from a re-analysis of the deposited data

Results flagged for a closer look

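In 15 of 242 groups of 8 arrays examined (6.20%), 1 array lay apart from the others by Dixon's criterion at the 95% level. Chance alone marks about 1 in 20 groups. Among the genes with the smallest p, array 6 with 18 mg/ml read 6.02 for Dcaf5 (next 5.75), array 3 with 18 mg/ml read 4.60 for B4galt7 (next 5.27), and array 2 with 18 mg/ml read 5.01 for Cyb561d1 (next 5.48). Array 7 with 0 mg/ml read 3.77 for Ssc5d (next 3.19). Array 2 with 0 mg/ml was lowest for Hmox1 at 8.29 (next 11.47) and for Ddit3 at 5.60 (next 6.61), and highest for the interferon-stimulated Xaf1 at 7.03 (next 5.95). For Nqo1, array 7 with 18 mg/ml read 7.88 (next 8.997) and array 1 with 0 mg/ml read 8.25 (next 9.01). Array 3 with 0 mg/ml read 6.34 for Cebpa (next 5.69), and array 1 with 0 mg/ml read 14.55 for Msln (next 14.32).

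Among list means, array 5 with 18 mg/ml was lowest for the cholinergic partners at 5.32, and array 8 with 18 mg/ml was highest for the interferon-stimulated genes at 6.62. Array 1 with 0 mg/ml was highest for the nicotinic receptors at 4.59 and lowest for the genes of nicotine breakdown at 5.68. No array stood apart in its correlation with the others of its group.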

How the results depend on the processing

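No gene was called between 18 and 0 mg/ml in AECII, or in the difference between cell types, under any alternative run. The smallest adjusted limma p of the AECII contrast was 0.165, with all 48 arrays in the fit. The 447 genes at an unadjusted p under 0.05 became 766 with no filter and 280 with the filter at the 50th percentile, since more or fewer genes were tested. Under the other alternatives there were 407 to 482, and 419 to 553 without any 1 array. Arrays of the same number did not deviate together (median correlation 0.016, 1 of 8 pairs over 0.1), and with the replicate number as a block there were 567. The order of the arrays in the series was not modelled. Atp5o, of the respiratory chain, read 10.77 to 10.95 in arrays 1 to 4 with 18 mg/ml and 10.15 to 10.36 in arrays 5 to 8. With 0 mg/ml it read 10.97 to 11.12 in arrays 1 to 6, and 10.58 and 10.26 in arrays 7 and 8. Control read 10.70 to 11.12 in arrays 1 to 6, and 10.51 and 10.32 in arrays 7 and 8. In each group the lower arrays come later in the series, so series position was not balanced between the nicotine contents. Its part in the contrast was not tested. Signs turned with the mean of all features for Tead1 (−0.025), Tmem198 (0.0035), AA684185 (0.059), Sftpb (0.12) and Scgb1a1 (−0.0034). Averaging features also took Kif3a to 0.31, Cyb561d1 to −0.14, Gabbr1 to −0.30, Fmo5 to −0.49, Il6 to 0.033 and Cadm3 to 0.26. Signs also turned with renewed quantile normalisation for Cyp1b1 (−0.0084) and Scgb1a1 (−0.013), and with array weights for Srxn1 (0.0099) and Fos (−0.023). The cause was not tested.

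Leaving out 1 array turned the sign of genes with estimates near 0. The estimates then ran over −0.091 to 0.15 for Chrna7, −0.056 to 0.21 for Chrnb4, −0.028 to 0.22 for Aox1, −0.44 to 0.094 for Cyp1a1, −0.046 to 0.071 for Cyp1b1 and −0.11 to 0.20 for Nqo1. They ran over −0.13 to 0.075 for Gclc, −0.099 to 0.11 for Srxn1, −0.026 to 0.22 for Ddit3, −0.031 to 0.11 for Sftpc, −0.13 to 0.049 for Sftpb and −0.0071 to 0.033 for Scgb1a1. For Fos they ran over −0.036 to 0.17, for Acta2 −0.26 to 0.041 and for Marco −0.039 to 0.53. Without turning sign, leaving out 1 array moved other estimates by over 1.5 times. These ran over 0.047 to 0.22 for Chrnb1, 0.14 to 0.34 for Gclm, 0.071 to 0.19 for Txnrd1, 0.061 to 0.36 for Slc7a11, 0.23 to 0.85 for Hmox1 and 0.016 to 0.23 for Sftpa1. For Sftpd they ran over 0.0055 to 0.11, for Abca3 0.0048 to 0.12, for Egr1 0.058 to 0.23, for Il6 0.014 to 0.19 and for Pcna −0.14 to −0.061. The estimates of Cebpa ran over −0.37 to −0.17, those of Xaf1 over −0.62 to −0.28 and those of Msln over −0.11 to −0.038. Signals near background limit what can be said of dim genes.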

Other observations

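The genes below were chosen after their values were seen. Beyond 2-fold lay 2 dim genes, Gm3604 and Gm5106. Gm5106 averaged 3.52 ± 1.07 with 18 mg/ml and 4.71 ± 0.72 with 0 mg/ml (SD, n = 8 each), a difference of −1.19 (SE 0.45). Cyp2c38, a cytochrome P450 gene, averaged 2.79 ± 0.62 and 3.79 ± 0.45, near background, and all 8 nicotine arrays were below the mean of the 0 mg/ml arrays (difference −0.999, SE 0.36, limma adjusted p = 0.999998).

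Some bright genes varied far more within each group than between the groups. Tbx22, a T-box transcription factor gene, spanned 5.78 to 9.36 with 18 mg/ml and 4.82 to 9.50 with 0 mg/ml, with a difference of 0.048 (SE 0.66). The sialyltransferase gene St6galnac1 spanned 8.62 to 11.61 and 7.85 to 11.92 (0.22, SE 0.57), and Cd300lf, a receptor of myeloid cells, 6.29 to 9.64 and 5.95 to 9.68 (0.17, SE 0.60). Coq10a, a coenzyme Q-binding protein gene, had the largest estimate among bright genes, 0.92 (SE 0.67). Its median with 18 mg/ml was 5.60, and 1 array of that group read 12.03, while its 0 mg/ml arrays lay at 4.78 to 5.76. Cdk1, the mitotic kinase, had the lowest estimate among bright genes, −0.68 (SE 0.53).

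Other features of the same gene were set beside the features used for the genes at an unadjusted p under 0.05. For 55 such bright genes with further bright features, 77 of 109 of those features (70.6%) had the sign of the feature used, against 2542 of 4312 (59.0%) for the remaining 2272 bright genes. Their median size in the direction of the feature used was 0.072, while that of the features used was 0.25. Features of 1 gene were read on the same arrays, from which the genes were also chosen, so these shares are a description and no separate test. Among 11423 features with no gene name used here that passed the filter, 0 were called with limma and 454 (3.97%) had an unadjusted p under 0.05.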
